A study of Spirodela polyrhiza with 16 samples.

Results

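The response of fronds to phosphate withdrawal was set against that of roots in the giant duckweed Spirodela polyrhiza, an aquatic plant reduced to flat floating fronds with a tuft of thin roots under each. For every gene, the change in roots without phosphate was compared with the change in fronds without phosphate, and the difference between those changes is called the organ difference here. All 16 of 16 libraries entered it, 4 per group, and it was tested for 16598 of 20389 genes, those with a mean of at least 0.5 FPKM (fragments scaled for gene length and library size). A positive organ difference means that the level moved up more, or down less, in roots than in fronds.

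Every flask, of 250 ml and filled with 100 ml of medium, held plants of genotype 9509. The medium was exchanged on day 10, with KH2PO4 for the control flasks and without it for the no-phosphate flasks, and the plants were collected on day 11. Each library came from polyadenylated RNA of the pooled plants of 1 flask, split into fronds and roots, so that the control and the no-phosphate plants shared the change of medium and the separation of organs. Crossing the 2 organs with the 2 media gave 4 groups. In each organ, libraries 1 to 4 are the controls and libraries 5 to 8 had no phosphate, by the numbers of their columns.

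Plants take up phosphate mainly through roots and move it to shoots, and both organs sense their own phosphate state. SPX-domain proteins bind inositol pyrophosphates when phosphate is plentiful and then hold back the transcription factors of the PHR family. When phosphate runs low, these factors turn on genes for phosphate uptake and salvage and for the exchange of membrane phospholipids with sulfolipid and galactolipid, while growth and cell division usually slow. In duckweeds the frond surface can take up nutrients from the medium as well, so that the division of labour between root and frond differs from that of land plants.

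Recovered reads summed to between 6325297 and 12437151 per library, and 3 reads on a gene of 1 kb were worth 0.213 to 0.507 FPKM. Photosynthesis genes summed to 154707 to 184780 FPKM in frond libraries and 61877.1 to 92219.1 FPKM in root libraries, with 0 to 4 of 71 members at 0 in any library. The 52 genes of the root cell list summed to 1670.61 to 1967.35 FPKM in roots and 1166.69 to 1330.98 FPKM in fronds, with 1 to 6 members at 0. The organs stood apart on both sums, but the mean log2 level over the root cell list did not separate them, at 3.53 to 3.70 in roots and 3.58 to 3.75 in fronds. The no-phosphate roots were the least uniform group: the chi-square of the reads of 2 libraries per degree of freedom was 16.3 to 52.0 there, against 3.70 to 26.0 in the other groups. No-phosphate root library 6 was also the most deeply sequenced library, and some of the results that rest on it are given with and without it. Genes are named by the homolog that the deposited table gives for them, and a homolog's role is background, not shown for the duckweed gene.

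The first question was whether any gene answered the loss of phosphate differently in fronds and roots. None passed the threshold used. With limma and Benjamini-Hochberg adjustment, 0 of 16598 genes (0%) had an adjusted p under 0.05 for the organ difference, the smallest adjusted p being 0.0645. At an unadjusted p under 0.05 there were 1843 genes (11.1%), of which 949 (5.72%) were higher and 894 (5.39%) lower in the root response. With voom on the recovered reads 2 genes were called and 1719 had an unadjusted p under 0.05. The median standard error of an organ difference was 0.25 on the log2 scale and the median size of the difference was 0.23. For 9033 genes (54.4%) the difference was smaller than its own standard error. P-values measure the spread between flasks, and in bulk tissue fewer cells of a type and less RNA per cell cannot be told apart.

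The organs' own responses put this in context. In fronds 732 genes (4.41%) were called, 351 higher (2.11%) and 381 lower (2.3%), and in roots 70 genes (0.422%), 59 higher (0.355%) and 11 lower (0.0663%). After giving every library 1 common FPKM total, the split was 241 and 590 in fronds and 16 and 9 in roots. All these counts use 1 spread shared by both organs. With a variance per organ there were 1775 frond calls and 0 root calls. Each organ fitted alone gave 1772 and 0. Of the 732 frond calls, 101 (13.8%) had a fitted root change of the opposite sign, against 6716 of all 16598 genes (40.5%). The frond genes that rose had a median root change of 0.34 (log2), with 41 of 351 below 0, and those that fell a median of -0.18, with 60 of 381 above 0. The 32 genes called in both organs with the shared spread all changed in the same direction. Across genes the 2 changes had a Pearson r of 0.34 and a Spearman rho of 0.27, given as a description over genes that share libraries.

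**Figure D1:**
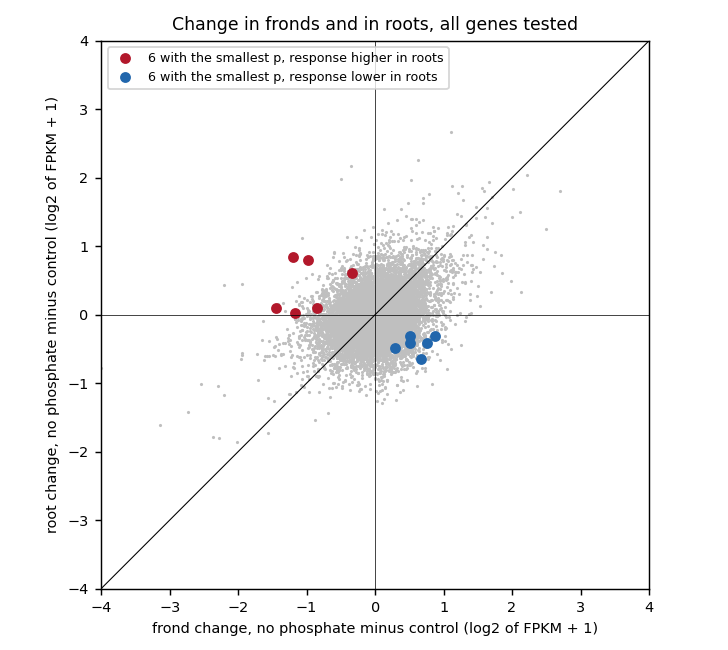
Change in fronds (x axis) and in roots (y axis) without phosphate, in log2 of FPKM + 1, for the 16598 genes tested (grey), with the line of equal change. The 6 described genes with the smallest p in each direction of the organ difference lie off the line, red above and blue below, and the cloud as a whole leans along it with a Pearson r of 0.34.

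Of the 1843 genes with an unadjusted p under 0.05, 340 were called in fronds alone, 24 in roots alone, 1 in both and 1478 in neither. For 66 of them both root groups had a mean under 0.5 FPKM and for 17 both frond groups did, so that the difference there came from a gene hardly read in the other organ. Because no organ difference passed, the genes below are described by their values. The first 12 are those with the smallest p, 6 in each direction, and the others were chosen after their values were seen.

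Among genes whose response was higher in roots, an MLO-like membrane protein and a leucine-rich repeat protein came first. The smallest p belonged to Sp19g00262 (chromosome 19, 1833239 to 1836121), a homolog of MLO-like protein 12, one of a family of membrane proteins known from powdery mildew susceptibility. Control fronds had 23.5, 29.2, 15.6 and 23.0 FPKM and no-phosphate fronds 11.2, 9.47, 13.1 and 9.91 FPKM. Control roots had 47.9, 43.6, 32.4 and 37.1 FPKM and no-phosphate roots 91.2, 52.0, 67.7 and 73.3 FPKM. The groups did not overlap in either organ, and they moved apart in opposite directions. The gene fell in fronds (log2 change -0.97 ± 0.19 SE, adjusted p = 0.0130 by limma), and its root change was 0.79 ± 0.19 (adjusted p = 0.0703 by limma). The organ difference was 1.77 ± 0.27 (adjusted p = 0.0645 by limma). Over 28 alternative settings it stayed between 1.52 and 1.93, and it was called in 8 of them, with an adjusted p between 0.00824 and 0.242.

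Sp12g00854 (chromosome 12, 5504507 to 5507538) showed the same layout. It is a homolog of the plant intracellular Ras-group-related LRR protein 1, a leucine-rich repeat protein. Its level was 26.6, 43.8, 45.3 and 44.3 FPKM in control fronds and 17.3, 10.8, 21.3 and 18.04 FPKM in no-phosphate fronds. It was 97.2, 141, 134 and 106 FPKM in control roots and 253, 157, 191 and 268 FPKM in no-phosphate roots. Again neither pair of groups overlapped. The frond fall was called (-1.21 ± 0.22 SE, adjusted p = 0.0106 by limma), the root change was 0.84 ± 0.22 (adjusted p = 0.0856 by limma) and the organ difference 2.05 ± 0.32 (adjusted p = 0.0645 by limma). It was between 1.86 and 2.23 over the alternatives, and 7 of 28 called it.

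**Figure D2:**
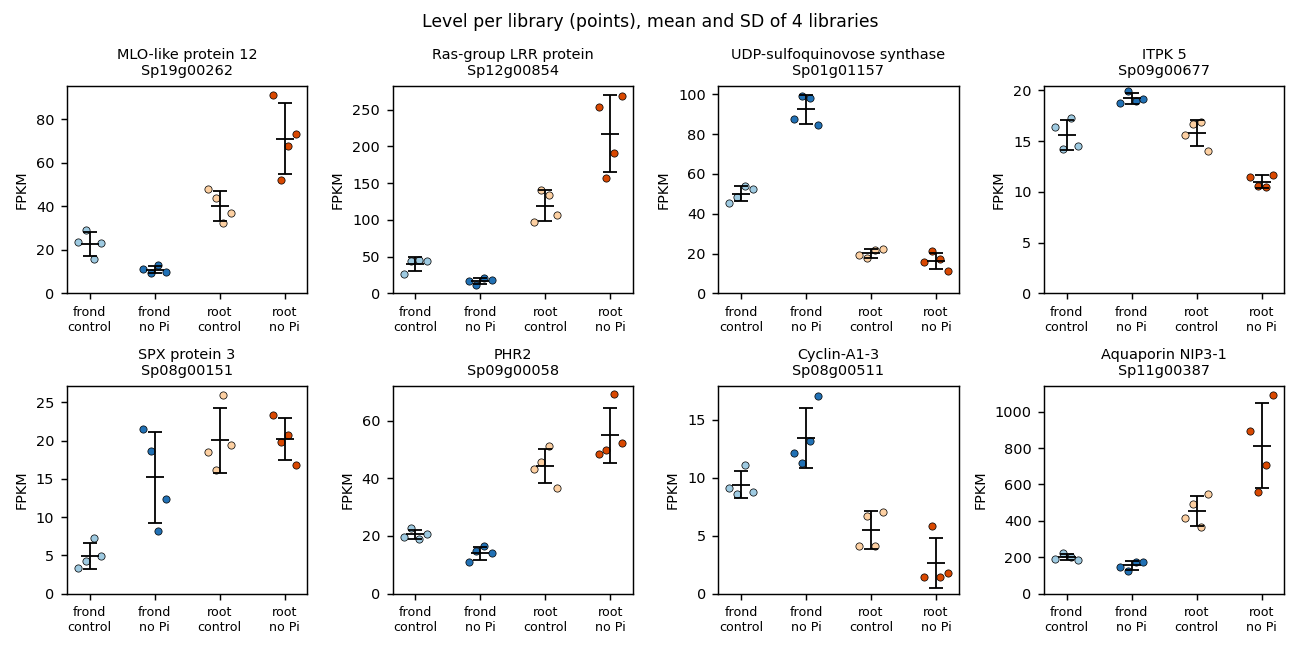
FPKM in each of the 16 libraries (points) for 8 genes, with the mean and SD of the 4 libraries of a group. In the upper left pair, MLO-like protein 12 and the Ras-group LRR protein, fronds go from 22.8 to 10.9 and from 40.0 to 16.8 FPKM while roots go from 40.2 to 71.1 and from 119 to 217 FPKM.

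The other 4 genes of this direction differed mainly by a frond fall with little movement in roots. Antimicrobial peptide 1 (Sp09g00362) had 26.1, 41.0, 45.6 and 51.4 FPKM in control fronds and 13.3, 11.996, 17.96 and 13.4 FPKM in no-phosphate fronds. It was at 0 in all control roots and in no-phosphate root libraries 6 to 8, with 0.291 FPKM in library 5, so its organ difference of 1.54 ± 0.27 is the frond fall of a gene not read in roots. The NAC-domain transcription factor 87 homolog (Sp01g01212) fell in fronds from 7.98 ± 1.23 to 3.09 ± 1.17 FPKM (SD, n = 4), without overlap. In roots it was at 45.7 ± 4.77 and 46.4 ± 3.22 FPKM, and the groups overlapped. The aspartyl protease APCB1 (Sp03g00903) fell in fronds from 14.0 ± 2.51 to 7.21 ± 0.642 FPKM and stood at 42.6 ± 6.46 and 45.4 ± 3.35 FPKM in roots. The homolog of vacuolar protein-sorting-associated protein 37 (Sp09g00159), part of the machinery that sorts membrane proteins for breakdown, was the exception. Its root groups did not overlap, with 40.5 ± 8.12 FPKM in control and 61.8 ± 7.90 FPKM without phosphate, and its frond levels were 4.69 ± 0.214 and 3.51 ± 0.452 FPKM. The organ differences of these 3 genes were 1.19 ± 0.24, 0.96 ± 0.18 and 0.95 ± 0.19 (SE, adjusted p = 0.178 for each by limma).

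Among genes whose response was lower in roots stood 2 that belong to phosphate biology. UDP-sulfoquinovose synthase (Sp01g01157, chromosome 1, 7779654 to 7781198) makes the head group of sulfolipid, the plastid lipid that stands in for phospholipid. Fronds had 45.5, 48.4, 54.1 and 52.4 FPKM in control and 87.5, 99.3, 98.2 and 84.6 FPKM without phosphate, while roots had 19.1, 17.5, 21.7 and 22.2 FPKM in control and 15.8, 21.1, 17.3 and 11.3 FPKM without phosphate. The frond groups were far apart and the root groups overlapped. The frond rise was called (0.87 ± 0.14 SE, adjusted p = 0.00682 by limma), the root change was -0.31 ± 0.14 (adjusted p = 0.305 by limma) and the organ difference -1.18 ± 0.20 (adjusted p = 0.0998 by limma). The organ difference lay between -1.30 and -1.02 over the alternatives, and 2 of 28 called it.

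Inositol-tetrakisphosphate 1-kinase 5 (Sp09g00677, chromosome 9, 3742577 to 3743593) is a homolog of kinases on the route to the inositol pyrophosphates that SPX domains bind. Control fronds had 16.4, 14.2, 17.3 and 14.5 FPKM and no-phosphate fronds 18.8, 19.97, 18.9 and 19.1 FPKM. Control roots had 15.6, 16.7, 16.8 and 14.1 FPKM and no-phosphate roots 11.4, 10.5, 10.5 and 11.6 FPKM. Both organs started from about the same level and neither pair of groups overlapped, the frond libraries going up and the root libraries down. Here it was the root change that was called (-0.48 ± 0.09 SE, adjusted p = 0.0386 by limma). That call held in 13 of 28 alternatives, with an adjusted p between 0.0164 and 0.317, and was lost, among others, with a variance per organ, in the 8 root libraries alone, and without control root library 2, 3 or 4 or no-phosphate root library 7 or 8. The frond change was 0.29 ± 0.09 (adjusted p = 0.0948 by limma) and the organ difference -0.77 ± 0.13 (adjusted p = 0.0998 by limma).

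The other 4 described genes of this direction had higher frond and lower root means without phosphate. ATXR2 (Sp17g00387), a histone methyltransferase homolog, was at 3.46 ± 0.887 and 6.06 ± 1.09 FPKM in fronds and at 2.30 ± 0.418 and 1.12 ± 0.354 FPKM in roots, with an organ difference of -1.32 ± 0.26. Actin-related protein 5 (Sp06g00071), a homolog of a chromatin remodelling subunit, rose in fronds from 9.63 ± 0.537 to 14.2 ± 1.02 FPKM (called in 18 of 28 alternatives) and stood at 10.5 ± 1.78 and 7.61 ± 1.35 FPKM in roots. Sp09g00316 and Sp02g00085 carry only domains of unknown function. Both rose in fronds, from 6.77 ± 1.33 to 12.1 ± 2.01 FPKM and from 13.2 ± 1.08 to 19.2 ± 1.24 FPKM, and their root libraries were lower without phosphate in every case. Of the 2 genes without any description and the smallest p in this direction, Sp10g00930 fell in roots from 5.19 ± 0.337 to 2.03 ± 0.712 FPKM, a call that held in 19 of 28 alternatives. The call was lost, among others, with a variance per organ and in the 8 root libraries alone. Sp17g00089 rose in fronds from 1.13 ± 0.464 to 2.42 ± 0.121 FPKM. In the other direction the genes without description were Sp20g00462 and Sp16g00063, with organ differences of 0.87 ± 0.19 and 1.62 ± 0.37. Over the alternatives the first lay between 0.80 and 1.01, but the second ran from 0.62 to 3.49.

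Phosphate signalling differed in its parts. Of the 15 genes of the SPX and phosphate signalling list, 1 was higher and 5 were lower in the root response at an unadjusted p under 0.05 (6.67% and 33.3%, against 5.72% and 5.39% of all genes). The median organ difference was -0.16 against 0.00 for all genes, from a median frond change of 0.21 and a median root change of 0.00. The list's median was -0.41 without no-phosphate root library 6. In fronds 3 members rose and 1 fell, where 2.11% and 2.3% of all genes did, and in roots 1 rose, where 0.355% did.

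SPX3 (Sp08g00151), a soluble SPX protein of the sensing pathway, had 3.36, 4.22, 7.24 and 4.91 FPKM in control fronds and 21.5, 18.6, 8.25 and 12.4 FPKM in no-phosphate fronds. Its root libraries ran from 16.2 to 26.0 FPKM in control and from 16.8 to 23.4 FPKM without phosphate. Control roots overlapped the no-phosphate fronds, and the no-phosphate roots lay within the range of the control roots. The organ difference was -1.38 ± 0.35 (adjusted p = 0.270 by limma). The SPX membrane protein homolog Sp14g00562, of a family that moves phosphate into the vacuole, rose in fronds from 15.1 ± 1.86 to 46.4 ± 12.9 FPKM. Its root libraries did not overlap either, at 27.1 ± 3.75 and 42.2 ± 6.49 FPKM, and the organ difference was -0.91 ± 0.24. Its neighbour Sp14g00561, with which reads could be shared, had an organ difference of -0.69 ± 0.27.

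PHOSPHATE STARVATION RESPONSE 2 (Sp09g00058), the homolog of a transcription factor that switches on starvation genes, went the other way. Control fronds had 19.8, 22.8, 19.0 and 20.6 FPKM and no-phosphate fronds 10.9, 14.9, 16.4 and 14.0 FPKM. Roots had 43.3, 45.7, 51.1 and 36.8 FPKM in control and 48.3, 49.8, 69.1 and 52.4 FPKM without phosphate. The fall in fronds was called (-0.53 ± 0.14 SE, adjusted p = 0.0414 by limma), the root groups overlapped, and the organ difference was 0.83 ± 0.20 (adjusted p = 0.226 by limma). The frond call held in 18 of 28 alternatives. PHO1 (Sp02g00083), whose homologs load phosphate into the xylem for export from roots, was far more abundant in roots. Its frond libraries went from 23.4 ± 0.789 to 28.9 ± 0.673 FPKM without overlap, its root libraries were at 152 ± 17.4 and 123.4 ± 19.3 FPKM, and the organ difference was -0.59 ± 0.16. For PHO1 homolog 1 (Sp08g00286) it was -0.73 ± 0.26.

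Phosphate transport as a wider list of 49 genes had 5 members higher (10.2%) and 4 lower (8.16%) in the root response, against 5.72% and 5.39% of all genes, and a median organ difference of -0.03. The glycerol-3-phosphate transporter homolog Sp14g00484 fell in fronds from 96.3 ± 9.15 to 49.4 ± 14.4 FPKM and was at 19.3 ± 7.53 and 20.3 ± 6.002 FPKM in roots, an organ difference of 1.09 ± 0.34. Acid phosphatases and phosphorus scavenging genes, 43 in all, had 3 higher (6.98%) and 1 lower (2.33%). Purple acid phosphatase 17 (Sp07g00875), of a family that releases phosphate from organic compounds, had 437, 379, 424 and 374 FPKM in control roots and 513, 583, 684 and 754 FPKM in no-phosphate roots. Its frond groups overlapped, at 422 ± 75.6 and 445 ± 46.9 FPKM, and its organ difference was 0.55 ± 0.20. Among 33 genes of phospholipid breakdown and galactolipid or sulfolipid synthesis, 0 were higher and 3 (9.09%) lower in the root response at an unadjusted p under 0.05 in limma, and none was called by voom or limma. The list's median organ difference was -0.0007, with 17 members below 0 and 16 above. The 3 lower ones were UDP-sulfoquinovose synthase and the neighbouring digalactosyldiacylglycerol synthase 1 models Sp04g00247 and Sp04g00246, which make galactolipid. These neighbouring models may share reads. Both rose in fronds, to 89.4 ± 9.503 and 45.9 ± 6.56 FPKM, and had organ differences of -0.53 ± 0.18 and -0.54 ± 0.24.

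Growth-related lists were among those with the lowest medians. Cytosolic ribosomal proteins, DNA replication and cell cycle genes, and cell wall enzymes all had median changes above 0 in fronds and below 0 in roots, although few members were called in fronds. There 0 ribosomal members rose and 1 fell, 1 and 1 of the DNA replication list, and 3 and 2 of the cell wall list, where 2.11% and 2.3% of all genes did. For 138 cytosolic ribosomal proteins the medians were 0.35 in fronds and -0.12 in roots, with a median organ difference of -0.46. Of these, 133 had an organ difference below 0, although only 15 (10.9%) were lower and 0 higher at an unadjusted p under 0.05, against 5.39% and 5.72% of all genes, and limma and voom adjusted over all genes called none of them. For 182 DNA replication and cell cycle genes the medians were 0.16, -0.14 and -0.31, with 29 lower (15.9%) and 2 higher (1.10%). For 148 cell wall enzymes they were 0.12, -0.17 and -0.33, with 22 lower (14.9%) and 7 higher (4.73%). The median organ differences of the 3 lists kept their sign in all 28 alternatives, as did their frond medians. The ribosomal root median did not: it was 0.06 without control root library 4 and also above 0 without no-phosphate root library 5. With a pseudocount of 5 the DNA replication and cell wall medians were -0.19 and -0.17.

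**Figure D3:**
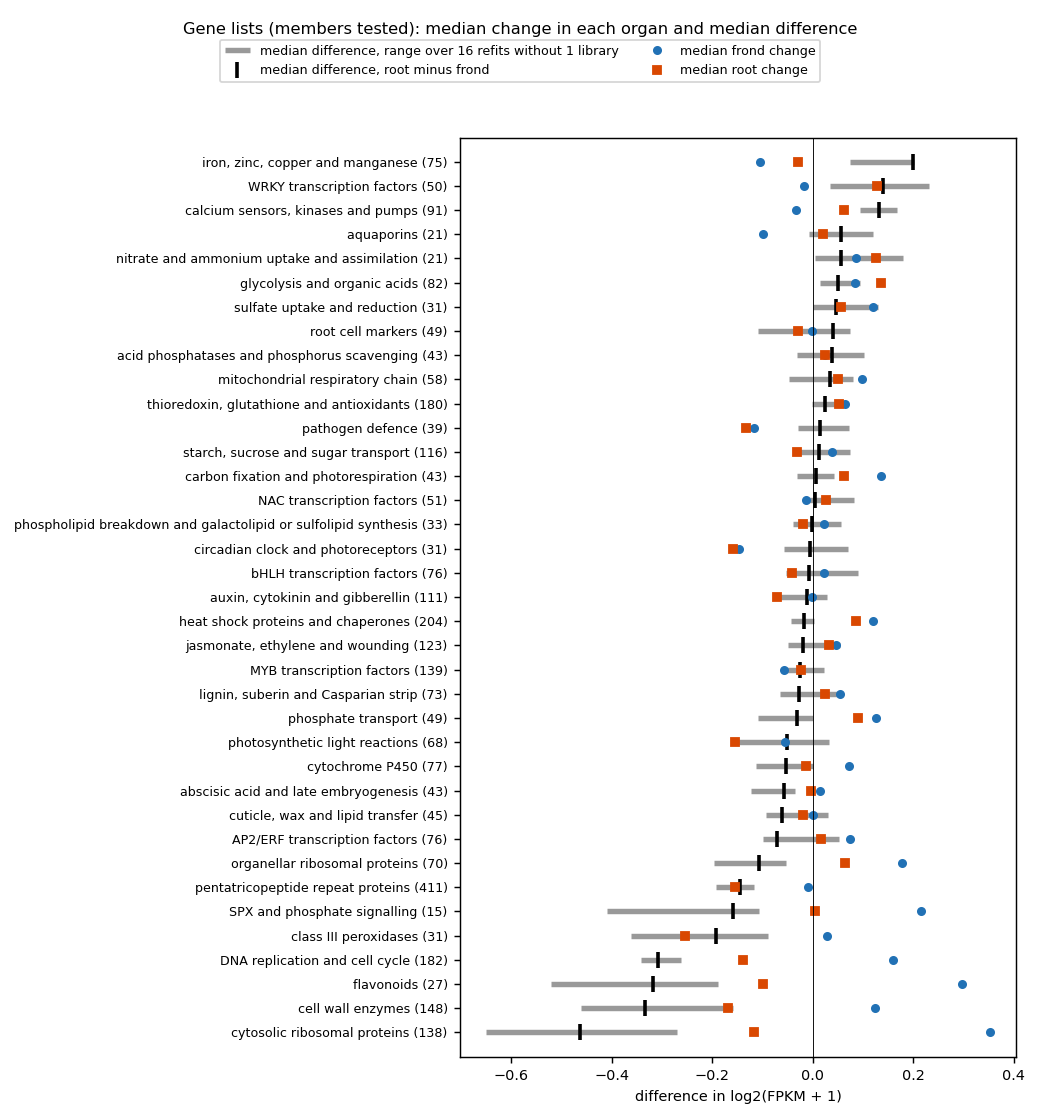
Median log2 change in fronds (blue) and in roots (orange) and median organ difference (black mark) of 37 gene lists, with the range of that difference over 16 refits that each leave out 1 library (grey). Cytosolic ribosomal proteins lie lowest, at -0.46 with a range of -0.65 to -0.27, and most lists lie within 0.1 of 0.

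The levels of these lists in single libraries qualify the shift. The mean level of the cytosolic ribosomal list, relative to the control mean of its organ, was -0.19, -0.30, 0.35 and 0.14 (log2) in control frond libraries 1 to 4 and 0.27, 0.29, 0.34 and 0.39 in no-phosphate frond libraries 5 to 8. It was -0.31, 0.12, -0.31 and 0.50 in control roots and -0.44, 0.39, -0.33 and -0.11 in no-phosphate roots. The groups overlapped in both organs, and no-phosphate root library 6 lay at the opposite end from libraries 5, 7 and 8. For DNA replication and cell cycle genes the frond groups did not overlap, with -0.09 to 0.06 in control and 0.11 to 0.25 without phosphate. The root groups did overlap, with library 6 at 0.12 and libraries 5, 7 and 8 at -0.16, -0.24 and -0.24, against -0.17 to 0.12 in control roots. Cell wall enzymes in no-phosphate roots ran from -0.56 in library 8 to 0.26 in library 6. The list medians moved accordingly: the ribosomal organ difference was -0.27 without control root library 4 and the cell wall one -0.16 without no-phosphate root library 8. DNA replication was steadier, between -0.34 and -0.26 with any 1 library left out. Among the refits without 1 library, the medians of all 3 lists were lowest, at -0.65, -0.34 and -0.46, without no-phosphate root library 6. With library weights the ribosomal median was -0.68.

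**Figure D4:**
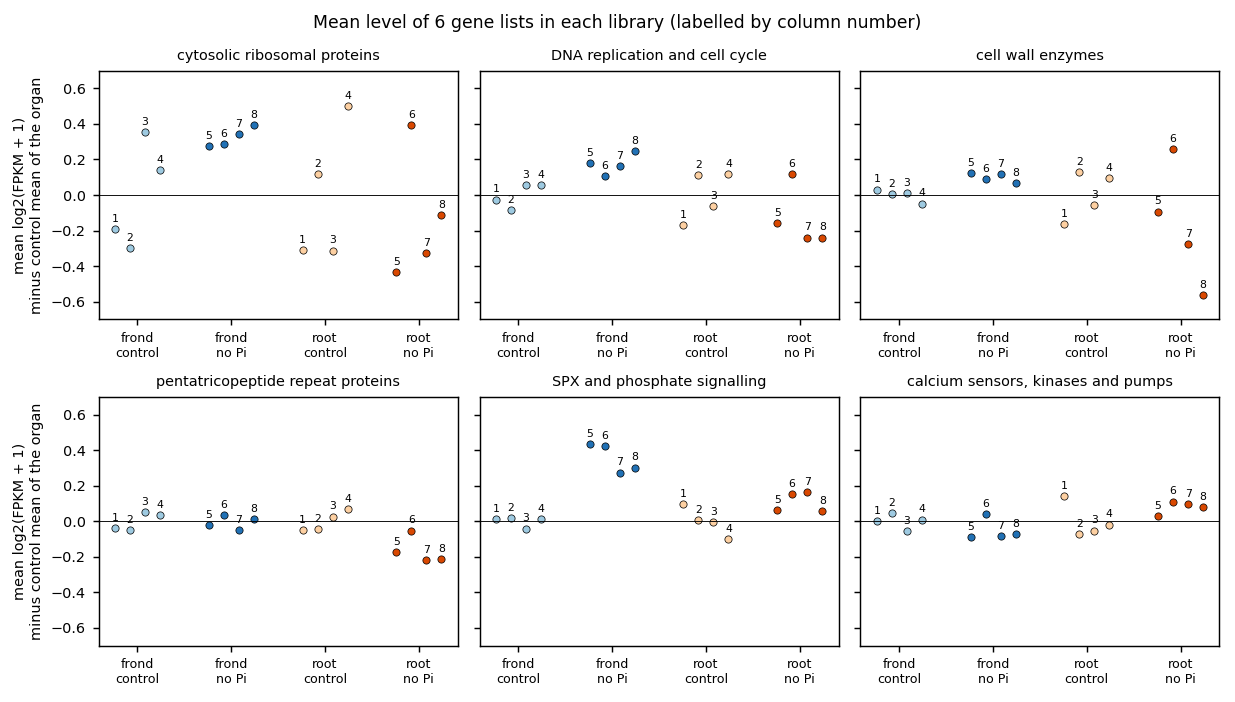
Mean log2(FPKM + 1) of 6 gene lists in each library minus the control mean of the same organ, each point labelled with its library number. In no-phosphate roots library 6 lies above the others for the ribosomal, DNA replication and cell wall lists (0.39, 0.12 and 0.26), and for SPX and phosphate signalling the frond groups are separate while the root groups overlap.

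Single cell cycle genes are given by library. The DNA replication licensing factor MCM5 (Sp05g00898), part of the helicase that opens DNA for copying, rose in fronds. It had 3.04, 2.52, 3.95 and 3.42 FPKM in control fronds and 7.52, 6.58, 8.42 and 7.64 FPKM in no-phosphate fronds. In roots it was near the reading limit, at 0.644 ± 0.411 and 0.653 ± 0.493 FPKM, and the organ difference was -1.03 ± 0.30. The homolog of cell division control protein 2 (Sp09g00470), the kinase that drives the cycle, rose in fronds from 22.4 ± 2.27 to 33.5 ± 1.49 FPKM and was at 17.9 ± 2.24 and 15.99 ± 3.25 FPKM in roots. Cyclin-A1-3 (Sp08g00511) had 12.1, 11.3, 13.2 and 17.1 FPKM in no-phosphate fronds against 8.64 to 11.1 FPKM in control. Its no-phosphate roots had 1.44, 5.85, 1.47 and 1.76 FPKM, library 6 being within the control range of 4.09 to 7.09 FPKM and the other 3 below it. Its organ difference was -1.42 ± 0.39 over all libraries and -1.77 without library 6. Cyclin-D1-1 (Sp12g00284) and cyclin-A3-1 (Sp03g00469) had organ differences of -0.99 ± 0.29 and -0.82 ± 0.24.

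Tubulin beta-2 (Sp10g01082), a building block of microtubules, was another gene in which library 6 stood apart. No-phosphate roots had 7.44, 29.8, 6.30 and 6.85 FPKM, and control roots 11.0, 18.2, 13.6 and 23.0 FPKM. Library 6 was above every control root and the other 3 were below every one. Fronds had 62.4, 55.3, 79.6 and 76.0 FPKM in control and 105, 111, 117 and 139.5 FPKM without phosphate, and the organ difference was -1.40 ± 0.50, or -1.89 without library 6. The plastid division protein FtsZ1 (Sp15g00211) had the same layout, with 7.74 FPKM in library 6 against 2.82 to 3.24 FPKM in the other no-phosphate roots. So did 60S ribosomal protein L10 (Sp02g01259), with 39.7 FPKM against 14.5 to 16.8 FPKM. Other ribosomal organ differences were -0.78 ± 0.24 for 40S S4 (Sp15g00018) and -1.04 ± 0.40 for 40S S16 (Sp08g00161). GMP synthase, which makes a purine nucleotide, is given by 2 neighbouring models that may share reads (Sp20g00088 and Sp20g00089), with organ differences of -1.24 ± 0.29 and -1.23 ± 0.33. Among cell wall enzymes, endoglucanase 1 (Sp09g00270) rose in fronds from 2.62 ± 0.424 to 4.88 ± 0.566 FPKM and was at 0.101 FPKM or less in every root library. Pectinesterase 66 (Sp01g00761) was a root gene, at 3.89 ± 1.26 FPKM in control and 1.72 ± 0.620 FPKM without phosphate and at 0 in all control fronds.

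Pentatricopeptide repeat and flavonoid genes had more members lower than higher in the root response at an unadjusted p under 0.05, with 0 called by limma or voom, and all genes had 5.39% lower and 5.72% higher. Of 411 pentatricopeptide repeat proteins, which handle organelle transcripts, 39 (9.49%) were lower and 7 (1.70%) higher, and by sign alone 289 lay below 0 and 122 above. The median frond change was -0.01, the median root change -0.15 and the median organ difference -0.14. The root levels of this list almost touched between control (-0.0501 to 0.0697) and no-phosphate libraries (-0.2175 to -0.0524), without overlap. The median depended on the scale, being -0.06 with a pseudocount of 5 and -0.25 with voom. Of 27 flavonoid genes, 4 (14.8%) were lower and 0 higher at an unadjusted p under 0.05 in limma, with none called in limma or voom and a median organ difference of -0.32. The median was -0.19 without control root library 4 and -0.52 without no-phosphate root library 6. A flavonoid 3'-hydroxylase homolog (Sp03g00533) was at 30.9 ± 6.37 and 62.0 ± 16.6 FPKM in fronds. The homeobox protein ANTHOCYANINLESS 2 (Sp09g00478) rose in fronds from 1.20 ± 0.379 to 4.01 ± 1.86 FPKM. The organ differences of these 2 genes were -1.07 ± 0.49 and -0.91 ± 0.31.

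In calcium signalling more members were higher than lower in the root response. Of 91 calcium sensors, kinases and pumps, 15 (16.5%) were higher and 2 (2.20%) lower in the root response, against 5.72% and 5.39% of all genes. The medians were -0.03 in fronds, 0.06 in roots and 0.13 for the organ difference, which stayed between 0.09 and 0.18 over the alternatives. In fronds 6 members fell and 0 rose, where 2.3% and 2.11% of all genes did, and in roots 0 were called either way by limma. The calmodulin-binding receptor kinase homolog Sp08g00425 fell in fronds from 13.8 ± 1.61 to 7.36 ± 1.20 FPKM and stood at 12.7 ± 2.10 and 12.6 ± 1.82 FPKM in roots. Its neighbour Sp08g00424, which may share reads with it, also fell in fronds. Calmodulin-1 (Sp09g00843), a calcium sensor, was at 55.3 ± 5.89 and 39.5 ± 5.99 FPKM in fronds without overlap and at 186 ± 38.8 and 226 ± 27.3 FPKM in roots, an organ difference of 0.78 ± 0.22. Calcium-dependent protein kinase 16 (Sp14g00375) had one of 0.61 ± 0.20.

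Transcription factor families differed in their counts, which compare with 5.72% higher and 5.39% lower over all genes. MYB factors had 13 of 139 (9.35%) higher and 5 (3.60%) lower with a median of -0.02, bHLH factors 3 of 76 each way (3.95%), and AP2/ERF factors 2 (2.63%) higher and 5 (6.58%) lower of 76 with a median of -0.07. NAC transcription factors had 8 of 51 members (15.7%) higher and 0 lower at an unadjusted p under 0.05 in limma, none called in limma or voom, with a median organ difference of 0.00. The median was 0.14 with voom. NAC83 (Sp04g00805) had 258, 142, 293 and 351 FPKM in no-phosphate roots against 203 to 219.9 FPKM in control roots. Library 6 was the lowest there and the other 3 were above all controls, and the organ difference was 0.73 ± 0.29, or 1.00 without that library. WRKY factors had 6 of 50 (12%) higher and 1 (2%) lower, and a median of 0.14 that ran from 0.03 without control frond library 2 to 0.23 without control root library 1. WRKY6 (Sp05g00601), whose homolog represses PHO1 in Arabidopsis, fell in fronds from 19.4 ± 3.55 to 8.54 ± 1.16 FPKM. Its no-phosphate roots had 43.9, 20.8, 34.7 and 51.0 FPKM against 31.1 to 47.8 FPKM in control. Its organ difference was 1.03 ± 0.31 over all libraries and 1.28 without no-phosphate root library 6. WRKY57 (Sp06g00719) had an organ difference of 1.21 ± 0.38. The 2 neighbouring models of Scarecrow-like protein 3 (Sp06g00830 and Sp06g00831), a GRAS regulator of root tissue patterning in Arabidopsis, fell in fronds, the first from 16.05 ± 1.01 to 8.18 ± 0.994 FPKM. Their organ differences were 0.86 ± 0.20 and 1.24 ± 0.37 over all libraries, and 0.98 and 1.55 without no-phosphate root library 6.

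Metal, sulfate and water transport held single genes with divergent values in both directions. The iron uptake transporter homolog Fe(2+) transport protein 2 (Sp17g00168) had 40.9, 46.9, 46.9 and 31.1 FPKM in control fronds and 101, 99.4, 91.7 and 74.2 FPKM in no-phosphate fronds. In roots it had 107, 99.1, 106 and 105 FPKM in control and 107, 124, 156 and 118 FPKM without phosphate. No-phosphate fronds overlapped the control roots and lay below all no-phosphate roots, and the organ difference was -0.88 ± 0.20. PLANT CADMIUM RESISTANCE 8 (Sp08g00804), of a family of small metal transport proteins, fell in fronds from 16.1 ± 5.81 to 2.99 ± 2.40 FPKM. Its no-phosphate roots had 9.53, 1.51, 1.79 and 2.52 FPKM, library 5 standing alone, and its organ difference was 2.65 ± 0.68, with 2.18 to 3.00 when any 1 library was left out. The 2 homologs of PLANT CADMIUM RESISTANCE 6, Sp18g00689 and Sp18g00314, had organ differences of -1.12 ± 0.33 and -1.03 ± 0.34. As a list, 75 metal genes had 5 higher (6.67%) and 4 lower (5.33%) at an unadjusted p under 0.05, near the 5.72% and 5.39% of all genes, and a median of 0.20, which fell to 0.07 without no-phosphate root library 5.

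Both organs had a higher level of the sulfate list without phosphate, 0.21 to 0.35 in fronds against -0.05 to 0.03 in control, and 0.09 to 0.32 in roots against -0.12 to 0.09 in control, where the groups overlapped. Of its 31 genes, 1 was higher (3.23%) and 3 were lower (9.68%) in the root response at an unadjusted p under 0.05, against 5.72% and 5.39% of all genes, and 2 of them are given here. Sulfate transporter 3.3 (Sp18g00369) rose in fronds, from 111 ± 9.74 to 188 ± 3.18 FPKM, and was at 13.3 ± 2.02 and 13.1 ± 5.23 FPKM in roots. Sulfate transporter 3.1 (Sp03g01231) rose in roots, from 2.81 ± 0.817 to 5.74 ± 0.516 FPKM without overlap, and was at 58.2 ± 4.01 and 65.9 ± 4.14 FPKM in fronds. Their organ differences were -0.84 ± 0.28 and 0.67 ± 0.18, and the list's median was 0.05, with 0.00 without control root library 4 and 0.13 without no-phosphate root library 6. The frond rise of the first was called in 13 of 28 alternatives and the root rise of the second in 22 of 28. That root call was lost with a variance per organ and in the 8 root libraries alone. It was also lost without control root library 2 or 3 or no-phosphate root library 7 or 8. The aquaporin NIP3-1 homolog (Sp11g00387), of a family of channels for small uncharged solutes, had 415, 491, 365 and 548 FPKM in control roots and 896, 556, 705 and 1093 FPKM without phosphate. Its frond libraries were lower without phosphate in every case, at 200.5 ± 17.4 and 156 ± 23.96 FPKM, and the organ difference was 1.18 ± 0.26. The water channels PIP1-3 (Sp01g01801) and PIP2-1 (Sp14g00027), among the most abundant of the transcripts named here, had organ differences of 0.47 ± 0.19 and 0.47 ± 0.20. Of 21 aquaporins 4 were higher and 2 lower (19.05% and 9.52%, against 5.72% and 5.39% of all genes), and the list's median was 0.06, turning to -0.04 with voom.

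Some sugar and light-related genes fell in fronds while their root groups overlapped. Sucrose synthase 2 (Sp03g01086), which splits sucrose for use in sink tissue, fell in fronds from 37.5 ± 2.82 to 20.2 ± 3.83 FPKM and was at 10.8 ± 2.80 and 10.5 ± 1.80 FPKM in roots. The cell wall invertase homolog Sp07g00420 fell in fronds from 146 ± 21.5 to 76.7 ± 10.4 FPKM. Its root libraries did not overlap, at 18.9 ± 1.15 and 14.7 ± 1.81 FPKM, so that it was lower without phosphate in both organs. Isoamylase 1 (Sp12g00897), a starch debranching enzyme, rose in fronds, with an organ difference of -0.66 ± 0.20. The clock-related ELF4-LIKE 3 (Sp18g00141) had 60.2, 74.0, 47.9 and 63.0 FPKM in control fronds and 28.9, 38.8, 36.0 and 38.96 FPKM in no-phosphate fronds. All 8 of its root libraries lay between 31.2 and 36.8 FPKM, and its organ difference was 0.82 ± 0.17. The neighbouring cryptochrome models Sp02g00054 and Sp02g00055, blue-light receptors, fell in fronds and had organ differences of 0.49 ± 0.22 and 0.56 ± 0.22. In mitochondria, the alternative oxidase homolog Sp07g00995, a bypass of the respiratory chain, had 11.6, 20.8, 21.6 and 21.0 FPKM in no-phosphate roots against 8.21 to 11.2 FPKM in control. Its frond groups overlapped, at 9.19 ± 1.59 and 10.3 ± 1.16 FPKM.

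Clock, chaperone and glycolysis lists had medians of the same sign in both organs. The 31 clock and photoreceptor genes had medians of -0.15 in fronds and -0.16 in roots, and the list's levels did not overlap between control and no-phosphate libraries in either organ. The 204 heat shock proteins and chaperones had medians of 0.12 and 0.09, also without overlap in either organ, and a median organ difference of -0.02. In roots the list's levels almost touched, with control libraries up to 0.029 and no-phosphate libraries from 0.0315. Glycolysis and organic acid genes had medians of 0.08 and 0.14. For these lists 3 and 2, 6 and 6, and 3 and 3 members were higher and lower in the root response at an unadjusted p under 0.05, where all genes had 5.72% and 5.39%. The light reactions of photosynthesis, 68 genes, had medians of -0.06 in fronds and -0.15 in roots, with 0 higher and 5 (7.35%) lower at that unadjusted p in limma and none called in limma or voom.

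Leaving out single libraries showed where the count of 0 rests. Without no-phosphate root library 6, limma called 116 genes, 39 with a higher and 77 with a lower root response, and 2998 had an unadjusted p under 0.05. Without any other single library the count was 0 to 3, and 1351 to 2193 genes had an unadjusted p under 0.05. With all libraries kept but weighted, no-phosphate root library 6 had the lowest weight (0.469), and 1 gene was called. What the count of 0 rests on was not tested. Of the 116, 110 had an unadjusted p under 0.05 over all 16 libraries, which is no separate support, since the fits share every other library. Another alternative also called 5 of them. Library 6 lay above the other 3 no-phosphate roots in 75 of the 77 lower calls. It lay below them in 34 of the 39 higher ones. No-phosphate root library 6 was the library farthest from its group mean in 42.3% of the 1843 genes, against 31.3% of all genes tested. Its depth was 12437151 reads, its photosynthesis genes summed to 62065.3 FPKM (others of its group 61877.1 to 80993.3) and its root cell list to 1941.71 FPKM (others 1715.36 to 1967.35). The part of depth or of tissue content in its distance from the others was not tested.

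**Figure D5:**
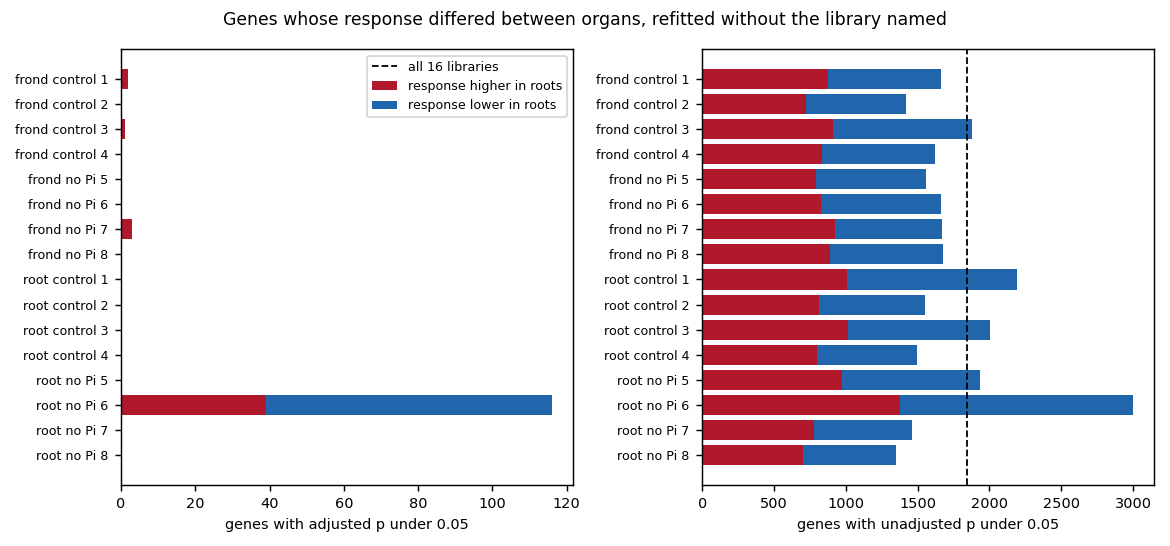
Number of genes with an organ difference at an adjusted p under 0.05 (left) and at an unadjusted p under 0.05 (right) after leaving out the library named, split into higher (red) and lower (blue) root responses. The dashed line on the right marks 1843, the count for all 16 libraries, and the matching count on the left is 0. Without no-phosphate root library 6 the counts are 116 and 2998, and without any other library they are 0 to 3 and 1351 to 2193.

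The genes called without that library made up 0.464% (lower) and 0.235% (higher) of all genes tested. The 77 lower ones included 5 of 182 DNA replication and cell cycle genes, 2 of 138 cytosolic ribosomal proteins and 2 of 148 cell wall enzymes, and the 39 higher ones 2 of 51 NAC factors and 2 of 49 root cell markers. No other list had more than 1 in either direction. The 2 root cell markers were the neighbouring Scarecrow-like protein 3 models Sp06g00830 and Sp06g00831, which may share reads. Their control means were 16.05 and 8.32 FPKM in fronds and 18.7 and 7.46 FPKM in roots, so neither was much higher in roots. Replication protein A 70 kDa subunit (Sp03g00549), which binds single-stranded DNA, had an organ difference of -1.43 ± 0.25 without library 6, and the E2F transcription factor homolog Sp15g00411 one of -1.60 ± 0.31. Over all libraries they were -1.05 and -1.31 (adjusted p = 0.383 and 0.317 by limma). Library 6 had 4.43 and 6.12 FPKM of the 2 genes. The other no-phosphate roots had 0.870 to 0.993 and 1.53 to 2.67 FPKM. MLO-like protein 12 was called in 8 alternatives, the Ras-group LRR protein in 7, antimicrobial peptide 1 in 3, and UDP-sulfoquinovose synthase and Sp02g01212, with a hydrophobic seed protein domain, in 2 each. Sp02g01212 had means of 78.2 and 19.7 FPKM in control and no-phosphate fronds. In roots it was at 0 in every library but no-phosphate library 5, with 2.46 FPKM. Like that of antimicrobial peptide 1, its organ difference is the frond fall of a gene hardly read in roots. In all, 118 genes were called under at least 1 alternative. Of the organ differences of 68 genes followed through the alternatives, none reversed. Those genes were chosen from their values in the same libraries, so this could hardly have come out otherwise and is no test.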

How the data were processed

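RNA of 16 samples was sequenced as 150 bp read pairs. HISAT2 2.0.5 and featureCounts 1.5.0-p3 are the aligner and counter named per the submitters' processing notes. Genome build and strand setting: not given in the sources used here. Positions are therefore the table's own, and neighbouring or near-identical models may share reads. The unit is FPKM, as deposited, for 20389 genes, of which 13558 carry a homolog or domain; 1 table line stayed out. FPKM times length gave whole multiples of 1 step (tolerance 0.01 reads) for 100% of values, which yields the reads behind them. The implied library size was 0.886 to 1.14 times their sum (under 1 for frond libraries, over 1 for root libraries), so the authors' FPKM carry a scaling between libraries that is not described.

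Values were taken to log2(FPKM + 1), which understates changes of low genes, and the 3791 genes with a mean under 0.5 FPKM were left out. Group means were fitted over all 16 libraries by limma 3.58.1 (R 4.3.3), the prior being trended and robust (statmod 1.5.0), with 12 residual degrees of freedom. Tests are two-sided, Benjamini-Hochberg adjustment covers 16598 genes, and called means an adjusted p under 0.05. Rose and fell are used of called changes. Errors after ± are SD over 4 libraries for levels and SE for log2 values. Column numbers could not be tied to labelled replicates, so libraries were fitted as independent, although fronds and roots of 1 flask may both be among them. The fit was tested on simulated data.

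The comparison, the 37 keyword lists (matched to homolog and domain text, also taking in genes that only share a word) and the named genes were chosen with earlier results of these data known. The rule named the largest organ differences among called genes and called members of lists. With fewer than 6 called in a direction, it named the 6 described genes with the smallest p and up to 2 without description, with values only. Alternatives were pseudocounts of 0.1 and 5, no filter and a mean of at least 2 FPKM, a common FPKM total or median ratios, a plain prior, variances per organ or library, voom on recovered reads, each library left out, control root library 3 and no-phosphate root library 5 left out together, a block for column numbers, and each organ fitted alone.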

Additional observations from a re-analysis of the deposited data

Results flagged for a closer look

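Within groups of 4 libraries, 1 library stood far from the other 3 for 22 of 312 groups tested, over 68 genes and 10 lists. At 1 in 20, 15.6 groups would stand out. That number holds for independent groups, whereas these share libraries and genes chosen from their values, so the total cannot be judged against it. No-phosphate root library 6 was the one in 8 of the 22 groups. Its FPKM was 0.802 for pectinesterase 66 (Sp01g00761), 39.7 for ribosomal protein L10 (Sp02g01259), 81.3 for the flavonoid 3'-monooxygenase (Sp03g00533) and 4.01 for Scarecrow-like protein 3 (Sp06g00831). It was 5.85 for cyclin-A1-3 (Sp08g00511), 0.0494 for endoglucanase 1 (Sp09g00270), 29.8 for tubulin beta-2 (Sp10g01082) and 7.74 for FtsZ1 (Sp15g00211). For endoglucanase 1 the other 3 libraries were at 0.

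No-phosphate root library 5 stood apart for the alternative oxidase (Sp07g00995) at 11.6 FPKM, PLANT CADMIUM RESISTANCE 8 (Sp08g00804) at 9.53 FPKM and antimicrobial peptide 1 (Sp09g00362) at 0.291 FPKM. Control root library 1 did for the invertase (Sp07g00420) at 17.2 FPKM.

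Among fronds, control library 1 stood apart for the Ras-group LRR protein (Sp12g00854) at 26.6 FPKM and the undescribed Sp17g00089 at 1.83 FPKM. Control library 2 did for cell division control protein 2 (Sp09g00470) at 25.8 FPKM and control library 3 for isoamylase 1 (Sp12g00897) at 18.3 FPKM. No-phosphate library 5 did for ribosomal protein S4 (Sp15g00018) at 44.5 FPKM and ATXR2 (Sp17g00387) at 4.44 FPKM, and library 8 for Sp17g00089 at 2.24 FPKM. Of the list levels relative to the control mean (log2), the flavonoids stood apart in no-phosphate frond library 5 at 0.50, SPX and phosphate signalling in control frond library 3 at -0.041, and the calcium list in no-phosphate frond library 6 at 0.040.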

How the results depend on the processing

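The count of called organ differences was 6 with a pseudocount of 5, 2 with a common FPKM total, 2 with voom, 1 with library weights and 0 to 116 with 1 library left out, the 116 being without no-phosphate root library 6. With column numbers as a replicate block it was 2; same-numbered libraries correlated between -0.116 and 0.147, so the numbers were not taken as pairs. Genes at an unadjusted p under 0.05 numbered 3272 with library weights and 1351 to 2998 with 1 library left out. Frond calls numbered 1775 with a variance per organ, 1991 with library weights, 1148 without control root library 3 and no-phosphate root library 5, 1772 from the 8 frond libraries alone, and 153 to 971 with 1 library left out. Root calls numbered 113 with a pseudocount of 5, 25 with a common FPKM total, 40 with a plain prior, 508 with library weights, 139 with voom, 350 without the same 2 root libraries, and 0 to 791 with 1 library left out. They were 0 with a variance per organ and from the 8 root libraries alone. The causes of these shifts were not tested. None of the organ differences of 68 genes followed through the alternatives reversed, which is no test, since the genes were chosen from their values in the same libraries. Of the named genes' values under alternatives, 1858 stayed on the same side of the threshold and 43 crossed it; of the list medians, 1002 moved by less than the spread between libraries and 34 by more.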
